A study of Mus musculus with 50 samples.

Results

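The clustered protocadherins were measured by RNA sequencing in the frontal cortex of wild-type (WT) and *Setd1a*+/− (Het) mice. Members were taken as the protein-coding genes of the GENCODE vM21 annotation of the mouse genome build GRCm38 whose symbol is Pcdha, Pcdhac, Pcdhb, Pcdhga, Pcdhgb or Pcdhgc followed by a number. The rule found 57 of the 21897 protein-coding genes in the files, 14 in the alpha cluster, 22 in the beta cluster and 21 in the gamma cluster. *Pcdhgb8*, whose symbol has the same form, is annotated as a polymorphic pseudogene and was not a member. The symbol *Pcdha11* is carried by 2 alpha members, ENSMUSG00000007440 at the 10th place and ENSMUSG00000102206 at the 11th place of the cluster, and both were kept.

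Clustered protocadherins are cadherin-family proteins of the neuronal surface. Each variable exon has a promoter of its own, and a neuron makes a choice among them that is largely random for the alternate members, with the factor CTCF and cohesin bringing a chosen promoter to a distant enhancer. The proteins of a cell recognise the same set of proteins on a facing membrane, and neurites of the same neuron repel each other by this match. In the alpha and gamma clusters the variable exon is spliced to constant exons that encode a shared cytoplasmic end, whereas beta members are encoded by a single exon each and lack that end. The C-type members *Pcdhac1*, *Pcdhac2*, *Pcdhgc3*, *Pcdhgc4* and *Pcdhgc5* lie next to the constant exons and are known to be used more widely than the alternate members. *Pcdhgc4* is known for its part in the survival of developing cortical interneurons, and *Pcdhgc3* for dendrite branching.

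Het mice carried a loss-of-function allele of *Setd1a* (tm1d, from a knockout-first design) on 1 copy of the gene, which encodes a histone H3 lysine 4 methyltransferase, and WT mice carried none. There were 5 mice of each genotype at E14, E18, P7, P35 and P70, in 10 groups and 50 libraries, all described as male and bred from Het males and WT females. The labels give the strain as C57BL/6NTac and the embryonic ages as E14 and E18, and the methods describe a mixed C57BL/6NTac and C57BL/6J background and embryos that were older by a fraction of a day. Polyadenylated RNA came from a homogenate of both frontal cortices of each mouse (the frontal brain in embryos), and the values are averages over all cell types of the tissue.

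The clusters lie in a row on the + strand of chromosome 18 of GRCm38, alpha from 36930184 to 37187661, beta from 37264938 to 37524479 and gamma from 37661793 to 37841873. All 14 alpha members include the alpha constant exons (2860 bases in 3 exons, at 37156155 to 37156213, 37159265 to 37159353 and 37184946 to 37187657). All 21 gamma members include the gamma constant exons (2116 bases in 3 exons, at 37825021 to 37825079, 37833265 to 37833353 and 37839903 to 37841870). The deposited values count a fragment for every gene whose exons it touches, so a fragment on a constant exon was counted for each member of its cluster. For this reason alpha and gamma members were described in 2 ways. The deposited count mixes constant and variable exons. The excess is the member's count less the count of the lowest member of its cluster in the same library, which cancels the constant-exon fragments and leaves a lower bound on the fragments of the member's own exons. Levels per length are given as RPKM, here the excess (alpha and gamma) or the count (beta) per kilobase of own exon bases per 1000000 TMM-scaled fragments.

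Libraries held 35507165 to 43907318 counts, and 16330 protein-coding genes passed the filter on low counts and were tested. *Setd1a* itself was higher in Het libraries, with a log2 fold change of 0.10 (SE 0.025, edgeR adjusted p = 0.00679). Whether its gene-level count includes exons that the allele keeps was not tested, so the count does not check the genotype and Het and WT stand for the libraries as labelled. E14 WT replicate 5 and E18 WT replicate 2 held 60159 and 55644 counts of *Xist*, against at most 27 in any other library. Their Y-linked counts were 0 and 11, against 4711 or more in every other library, which goes against their description as male. P7 WT replicate 2 held choroid plexus markers at a summed 619 CPM, against 2.93 to 3.79 CPM in the other WT libraries of that age, and oligodendrocyte markers at 1183 CPM, against at most 171 CPM in those. Neuron markers (*Map2*, *Tubb3*, *Rbfox3*, *Snap25*, *Slc17a7*) were present in every library. Their sum rose from 2158 to 3196 CPM at E14 to 5601 to 6409 CPM at P70 in WT, while that of progenitor markers went from 434 to 627 CPM to 60.5 to 84.1 CPM. Single neuron markers differed. From P7 to P35 the log2 fold changes were −2.16 for *Tubb3*, −0.34 for *Map2*, 0.62 for *Rbfox3*, 1.54 for *Slc17a7* and 2.08 for *Snap25*. Oligodendrocyte markers had WT medians of 49.4 CPM at E14, 157.4 CPM at P7 and 4401 CPM at P35, and astrocyte markers of 152 CPM at E14, 714 CPM at P7 and 798 CPM at P35. Choroid plexus markers spanned 0.734 to 463 CPM at E14, reached 232 CPM in E18 WT, and were at most 41.4 CPM at P35 and P70. The part of these markers in the changes with age was not tested. In bulk tissue, fewer cells of a type and less RNA per cell cannot be told apart.

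Of the 57 members, 56 passed the filter. *Pcdhb1*, the member at the start of the beta cluster, held 0 to 12 counts, with 16 of 50 libraries at 0, and was not tested. In the alpha cluster the lowest member was *Pcdha8* in 48 libraries and *Pcdha1* in 2, so *Pcdha8* has no level of its own here and 13 alpha members were tested on their excess. In the gamma cluster the lowest member changed between libraries (*Pcdhgb5* in 20, *Pcdhgb4* in 13, *Pcdhga1* in 7, *Pcdhgc5* in 6, *Pcdhga9* in 3 and *Pcdhgb2* in 1), and all 21 were tested on their excess. The excess was a small part of most counts. Its median over the 50 libraries was 20.2% of the count for *Pcdhac2* and 15.4% for *Pcdhgc3*, 4.33% for *Pcdhgc4* (range 1.70 to 12.4%) and 2.39% for *Pcdhgc5* (range 0 to 25.2%).

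Across all 50 libraries the C-type member *Pcdhgc3* (ENSMUSG00000102918, variable exon 37806364 to 37809743) had the highest mean level per length of the 57 members, at 24.8 RPKM. It was followed in the gamma cluster by *Pcdhgc5* (ENSMUSG00000102543) at 9.59 RPKM and *Pcdhga11* at 8.61 RPKM, although *Pcdhgc5* was under 3 RPKM in every library up to P7 and at a mean of 22.8 RPKM at both P35 and P70. The lowest gamma levels were those of *Pcdhga1* (0.663 RPKM), *Pcdhgb5* (0.271 RPKM) and *Pcdhgb4* (0.261 RPKM). The highest alpha levels were those of *Pcdhac2* (ENSMUSG00000102697, variable exon 37143503 to 37146530) at 12.1 RPKM, *Pcdha12* at 4.52 RPKM and *Pcdha9* at 3.64 RPKM, and the lowest above *Pcdha8* were *Pcdhac1* (0.826 RPKM) and *Pcdha1* (0.598 RPKM). Beta members spanned a narrower range, with *Pcdhb20* (3.43 RPKM), *Pcdhb17* (3.24 RPKM) and *Pcdhb9* (3.07 RPKM) at the top and *Pcdhb6* and *Pcdhb14* (0.778 RPKM each) above *Pcdhb1* (0.0290 RPKM) at the bottom. Some of these levels include fragments of other genes, since strand was not used. Of the own exon bases, 99.9% are shared with other annotated genes for *Pcdhga10*, 86.0% for *Pcdha4*, 63.5% for *Pcdhb12* (antisense *Gm37446*), 52.3% for *Pcdhga11* and 46.1% for *Pcdhgc3* (antisense *BC037039*).

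The 3 clusters followed different courses over development. Fragments that could be assigned to alpha members increased between E14 and E18, were highest at P7 and decreased again by P35. In E14 WT libraries the summed alpha excess was 56.4 CPM ± 17.6 (SD, n = 5). It was 121 ± 9.47 in E18 WT, 165 ± 15.96 in P7 WT, 103 ± 5.42 in P35 WT and 97.1 ± 11.1 in P70 WT. Summed beta counts rose before birth and then held level, with WT means of 82.1 CPM ± 16.1 for E14, 153 ± 9.47 for E18, 161.8 ± 6.83 for P7, 154 ± 7.25 for P35 and 156.9 ± 7.76 for P70. The summed gamma excess changed least, with WT means of 269 CPM ± 42.4 for E14, 320 ± 24.1 for E18, 283 ± 13.2 for P7, 273 ± 9.09 for P35 and 284 ± 21.8 for P70, although its makeup turned over, as described next. Where *Pcdhgb8* may be the reference subtracted, as explained with the comparison of ages, the gamma means were 296 CPM for E14, 390.2 for E18, 337 for P7, 316 for P35 and 319 for P70. The count of the lowest member is an upper bound on the constant-exon fragments. For alpha it had WT means of 59.9 CPM for E14, 139 for E18, 228 for P7, 121 for P35 and 117 for P70, and for gamma 364, 464, 463, 448 and 459 CPM. P7 WT replicate 2 had the lowest value of its group in both.

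**Figure D1:**
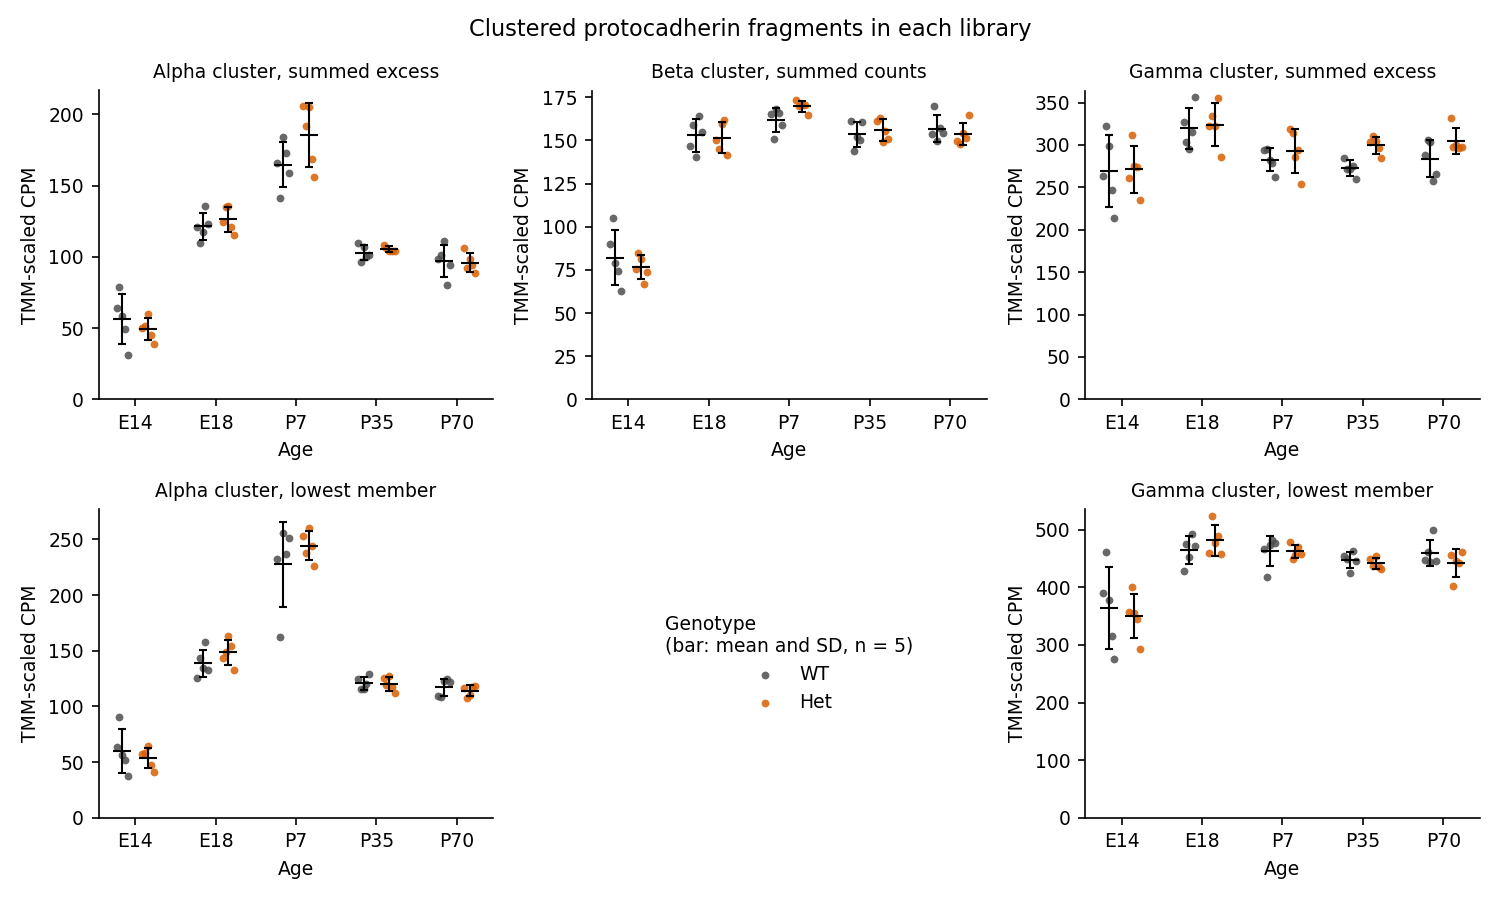
Summed levels of the alpha, beta and gamma clusters in each library, in TMM-scaled CPM against age, with points for the 5 WT and 5 Het libraries of each age and bars for the mean and SD. The alpha sum is highest at P7 (WT mean 165 CPM). The WT means of the beta sum hold at 153 to 161.8 CPM from E18 on, and those of the gamma sum lie between 269 and 320 CPM.

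The members were then compared between neighbouring ages, with both genotypes averaged, with the quasi-likelihood test of edgeR, and p-values were adjusted over all genes tested (Benjamini-Hochberg). From E14 to E18 the deposited counts of 56 of 56 members rose. Of all genes tested 73.4% were called, 5874 of 16330 of them as higher. The median log2 fold change was 1.34 in the alpha cluster (range 1.29 to 1.36), 0.89 in the beta cluster (0.38 to 1.83) and 0.40 in the gamma cluster (0.32 to 0.47), beside a median near 0 (−0.0025) over all genes. The narrow alpha and gamma ranges are those of counts that share their constant exons. On the excess, 22 of 34 members rose and 3 fell, where 35.9% and 37.5% of genes did. The risers were 12 of 13 alpha members, all but *Pcdhac1* (−0.22), and 10 gamma members. The gamma members that fell were *Pcdhga9* (−2.12), *Pcdhgb5* (−1.91) and *Pcdhgb7* (−0.35), and the mean levels of *Pcdhga9* and *Pcdhgb5* over 10 libraries were under 1 RPKM at both ages. These 3 calls depended on the reference subtracted. The pseudogene *Pcdhgb8* has the same constant exons, and where it was allowed as the lowest gamma member 16 gamma members rose and 0 fell by the edgeR test (main analysis, 10 and 3). The values were then 0.21 for *Pcdhga9* (adjusted p = 0.178), −0.095 for *Pcdhgb5* (adjusted p = 0.617) and 0.0042 for *Pcdhgb7* (adjusted p = 0.967).

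From E18 to P7 the alpha counts went on rising, and the beta counts divided. All 14 alpha members rose on the deposited counts, with a median of 0.70, together with 7 beta members, and *Pcdhb7* (−0.23) fell, making 21 members that rose and 1 that fell where 37.9% and 38.2% of genes did. Of the gamma members 0 of 21 were called by edgeR on the deposited counts, and 0 had an unadjusted p under 0.05. On the excess, 7 alpha members rose, 4 gamma members rose (*Pcdhgc5* by 3.04, *Pcdhga9* by 1.78, *Pcdhga8* by 0.70 and *Pcdhga10* by 0.38) and 9 gamma members fell, where 37.8% of genes rose and 38.3% fell. With *Pcdhgb8* as a possible reference 1 gamma member rose, *Pcdhgc5* (1.49), and 10 fell. *Pcdhga9* (0.18, edgeR adjusted p = 0.233), *Pcdhga8* (0.26, adjusted p = 0.122) and *Pcdhga10* (0.098, adjusted p = 0.323) were then not called.

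From P7 to P35 the alpha cluster turned down. All 14 alpha members fell on the deposited counts (median −0.97). Of the beta members, 9 fell, by up to 0.84 in *Pcdhb4*, and 4 rose, namely *Pcdhb10* (0.40), *Pcdhb15* (0.28), *Pcdhb12* (0.26) and *Pcdhb14* (0.24). In the gamma cluster *Pcdhgc5* rose (0.27), and *Pcdhgc3* (−0.14) and *Pcdhgc4* (−0.17) fell. This made 5 members that rose and 25 that fell, where 38.0% and 38.1% of genes did. With scaling by library size only, which moved the median of all genes by −0.08, 3 rose and 44 fell. On the excess, 12 alpha members fell and *Pcdhac1* rose (0.75), and 3 gamma members rose and 12 fell, where 38.0% of genes rose and 38.2% fell. With *Pcdhgb8* as a possible reference 1 rose, *Pcdhgc5*, and 13 fell, and the values of *Pcdhgb2* and *Pcdhga5* went from 1.24 and 1.12, both called, to 0.16 and 0.26, not called.

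Between P35 and P70, 0 of 56 members were called on the deposited counts by edgeR (1 had an unadjusted p under 0.05), where 9.74% of genes were. The count was 0 under the other settings run as well. On the excess, 2 gamma members rose, where 5.02% of genes did, *Pcdhgb7* by 0.75 (SE 0.11, adjusted p = 1.17e-05) and *Pcdhgb6* by 0.44 (SE 0.075, adjusted p = 9.48e-05). With *Pcdhgb8* as a possible reference these were 0.44 (edgeR adjusted p = 0.00042) for *Pcdhgb7* and 0.35 (adjusted p = 0.000954) for *Pcdhgb6*. From E14 to P70 as a whole, 52 members rose on the deposited counts and 0 fell, where 44.7% of genes rose and 45.1% fell. The members not called were *Pcdhb4*, *Pcdhb7*, *Pcdhb8* and *Pcdhgc3*. On the excess 14 rose and 9 fell, where 44.6% and 45.2% of genes did.

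Each C-type member followed a course of its own. *Pcdhgc5* was near 0 before birth and had the highest level per length of the gamma members at P35 and P70. Its excess was 2, 0, 51, 0 and 28 fragments in E14 WT replicates 1 to 5, and 0, 0, 0, 31 and 33 in the Het replicates, so that 5 of these 10 libraries were at 0. At P7 the level was 2.16, 1.47, 2.10, 2.15 and 1.86 RPKM in WT and 2.65, 2.16, 1.95, 2.29 and 1.56 RPKM in Het. At P35 it was 24.4, 20.99, 23.2, 23.3 and 20.97 RPKM in WT and 23.4, 23.1, 23.6, 22.2 and 22.7 RPKM in Het. The lowest P35 library was several times the highest P7 library, and the genotypes overlapped at both ages. On the log2 scale the excess rose by 3.04 (SE 0.35) from E18 to P7 and by 3.49 (SE 0.29, adjusted p = 9.84e-15) from P7 to P35, and had a value of 0.00 from P35 to P70. The E18 to P7 value was 1.49 where *Pcdhgb8* may be the lowest member. The E14 to P70 value of 8.39 (SE 0.42) rests on E14 libraries at or near 0 and became 14.16 with 1 fixed reference member and 6.92 with *Pcdhgb8*. *Pcdhgc5* thereby went from 0.0861% of the summed gamma level per length in E14 WT to 32.2% in P35 WT and 29.4% in P70 WT, or from 0.306% to 27.2% and 25.8% with *Pcdhgb8*.

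*Pcdhgc4* (ENSMUSG00000023036, variable exon 37815079 to 37818555), its neighbour, was highest at E18 and P7. Levels were 6.04, 7.17, 4.87, 4.38 and 3.03 RPKM in E14 WT, 13.4, 17.1, 12.97, 13.6 and 12.9 RPKM in P7 WT and 2.97, 2.60, 2.76, 2.86 and 2.53 RPKM in P35 WT. Het libraries held 4.68, 4.47, 4.89, 4.42 and 3.41 RPKM at E14, 17.3, 16.1, 14.6, 13.3 and 12.1 RPKM at P7 and 3.57, 2.79, 2.92, 3.10 and 2.91 RPKM at P35. Every P7 library was above every E14 and every P35 library, and the genotypes overlapped at each of these ages. The excess rose by 1.44 (SE 0.091) from E14 to E18, was not called from E18 to P7 (0.16, adjusted p = 0.0964) and fell by 2.31 (SE 0.094, adjusted p = 1.01e-25) from P7 to P35. The P7 to P35 changes of *Pcdhgc4* and *Pcdhgc5* thus had opposite signs although their variable exons lie side by side.

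*Pcdhgc3* started as the most abundant member and fell after birth. Its level was 35.1, 43.9, 36.1, 30.0 and 27.7 RPKM in E14 WT, 25.4, 35.7, 22.6, 24.6 and 24.8 RPKM in P7 WT and 16.5, 15.1, 15.2, 13.4 and 13.97 RPKM in P70 WT. Het libraries held 31.2, 36.7, 32.5, 33.9 and 27.4 RPKM at E14, 25.8, 25.2, 21.98, 25.6 and 24.5 RPKM at P7 and 15.1, 14.8, 15.8, 15.01 and 13.7 RPKM at P70. The P70 libraries all lay below the P7 libraries, and the high P7 WT value is that of replicate 2, the P7 library that stood apart in choroid plexus markers. Its excess did not change from E14 to E18 by a called amount (0.03), and fell by 0.42 (SE 0.067) to P7 and by a further 0.69 (SE 0.068) to P35. Without P7 WT replicate 2 the E18 to P7 fall was 0.49. From E14 to P70 it fell by 1.17 (SE 0.068, adjusted p = 1.4e-20). The antisense gene *BC037039*, which overlaps 46.1% of its own bases, went from 82.1 CPM in E14 WT to 36.5 CPM in P70 WT, and its part in the fall was not tested. In fragments, the excess of *Pcdhgc3* summed to 43429 over the E14 libraries and 17500 over the P70 libraries. The share of *Pcdhgc3* in the summed gamma level per length went from 39.9% in E14 WT to 19.8% in P70 WT.

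After P7, *Pcdhac2* changed little and *Pcdhac1* rose. *Pcdhac2* held 5.36, 6.12, 5.30, 4.25 and 3.10 RPKM in E14 WT, 15.6, 15.7, 17.99, 17.4 and 14.7 RPKM in P7 WT and 15.5, 14.1, 14.7, 11.8 and 13.4 RPKM in P70 WT. Het libraries held 4.47, 3.65, 4.91, 4.83 and 3.59 RPKM at E14, 19.8, 18.9, 20.3, 15.9 and 14.7 RPKM at P7 and 14.8, 13.8, 13.9, 13.2 and 13.5 RPKM at P70. All P7 and P70 libraries were above all E14 libraries, and the P7 and P70 libraries overlapped. The excess rose by 1.09 (SE 0.077) to E18 and by 0.82 (SE 0.075) to P7, fell by 0.17 (adjusted p = 0.0384) to P35, and was higher at P70 than at E14 by 1.61 (SE 0.077, adjusted p = 9.57e-24).

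*Pcdhac1* (ENSMUSG00000103255, variable exon 37090013 to 37092571) was low throughout, at 0.689, 0.403, 0.738, 0.360 and 0.425 RPKM in E14 WT and 1.28, 1.00, 1.43, 1.22 and 1.20 RPKM in P35 WT. Het libraries held 0.808, 0.603, 0.507, 0.543 and 0.692 RPKM at E14 and 1.21, 1.09, 1.24, 1.08 and 1.37 RPKM at P35. The P35 libraries did not overlap the E14 libraries. It was the alpha member that rose from P7 to P35, by 0.75 (SE 0.17, adjusted p = 0.000114), and from E14 to P70 it rose by 0.95 (SE 0.17, adjusted p = 2.22e-06). The share of *Pcdhac2* in the summed alpha level went from 23.9% in E14 WT to 41.2% in P35 WT, and that of the alternate members from 73.4% to 55.5%.

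**Figure D2:**
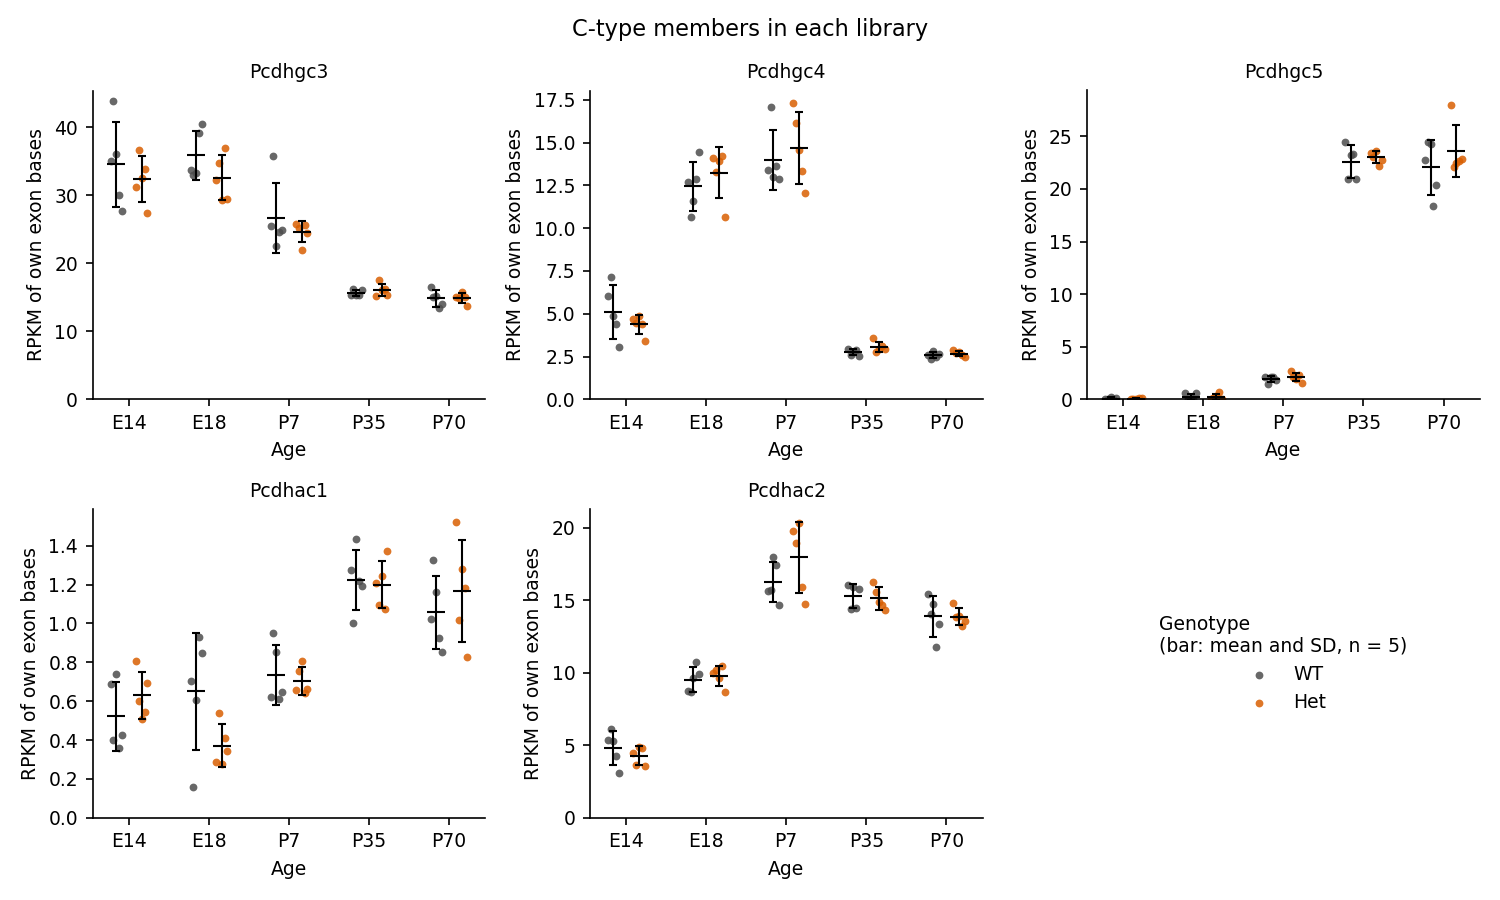
Level of each C-type member in each library, in RPKM of its own exon bases against age, with points for the 5 WT and 5 Het libraries of each age and bars for the mean and SD. *Pcdhgc5* climbs from under 3 RPKM at P7 to 20.97 RPKM or more in every P35 library, *Pcdhgc4* falls from 12.1 RPKM or more at P7 to 3.57 RPKM or less at P35, and *Pcdhgc3* declines from E18 on.

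The alternate alpha members, which supply most of the alpha diversity, differed in how far they rose to P7. From E18 to P7, 7 of 13 alpha members were called higher on the excess, where 37.8% of genes were. These 7 included the C-type members *Pcdhac1* and *Pcdhac2*, and the others were alternate members. Over the 13 tested members the values ran from 0.046 in *Pcdha7* (edgeR adjusted p = 0.735, not called) to 1.33 in *Pcdha1*. Of the 14 alpha members, 12 had their highest mean level at P7, namely *Pcdhac2* and all alternate members but *Pcdha8*. *Pcdha12* had means of 2.21 RPKM ± 0.776 (SD, n = 10, both genotypes) for E14, 4.57 ± 0.749 for E18, 7.92 ± 1.22 for P7, 3.98 ± 0.341 for P35 and 3.94 ± 0.595 for P70. *Pcdha9* took the same form, with 2.02 RPKM ± 0.652 at E14, 6.61 ± 1.21 at P7 and 2.39 ± 0.598 at P70. *Pcdha1*, at the start of the cluster, had the largest alpha rise from E14 to P70, by 2.55 (SE 0.30) on the excess, from 0.0911 RPKM ± 0.0529 at E14 to 0.529 ± 0.146 at P70, both low levels.

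Beta members differed in the size of their changes. From E14 to P70, 18 of 21 tested beta members rose, where 44.7% of all genes did. *Pcdhb12* (ENSMUSG00000043458, exon 37435621 to 37438654) was low at E14, with 0.455, 0.393, 0.390, 0.392 and 0.428 RPKM in WT and 0.341, 0.433, 0.445, 0.342 and 0.376 RPKM in Het. At P70 it held 3.42, 3.10, 3.38, 3.18 and 3.35 RPKM in WT and 3.43, 3.02, 2.75, 3.5002 and 3.38 RPKM in Het. The ages did not overlap and the genotypes did. Its rise of 3.02 (SE 0.077, adjusted p = 2.09e-34) was the largest of the beta cluster. The antisense gene *Gm37446* overlaps 63.5% of *Pcdhb12*. It went from 1.21 CPM in E14 WT to 6.90 CPM in P35 WT, an earlier end age and another unit than those of the levels above. *Pcdhb12* itself summed to 467 counts over the E14 libraries and 3470 over the P35 libraries. The part of *Gm37446* in the rise was not tested. *Pcdhb13* rose by 2.40 (SE 0.10) and *Pcdhb14* by 2.15 (SE 0.10), from means of 0.309 and 0.261 RPKM at E14 to 1.61 and 1.15 RPKM at P70.

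By place along the beta cluster, the median level of *Pcdhb1* to *Pcdhb8* was 0.802 RPKM at E14, 1.20 RPKM at E18 and 0.894 RPKM at P70. For *Pcdhb9* to *Pcdhb15* it went from 0.481 RPKM at E14 to 1.18 RPKM at E18 and 1.61 RPKM at P70, and for *Pcdhb16* to *Pcdhb22* from 1.02 RPKM to 1.87 RPKM and 1.57 RPKM. The median at the start of the cluster was thus near its E14 value again at P70, and that of the middle members was not. That median does not describe each member at the start. There *Pcdhb4*, *Pcdhb7* and *Pcdhb8* were not called from E14 to P70, and the other tested members rose. As a description across genes, which share libraries and are not independent replicates, place along the cluster and the E14 to E18 log2 fold change had a Spearman rho of 0.59 over 21 beta members, beside 0.11 for E18 to P7, 0.083 for P7 to P35 and 0.29 for E14 to P70. For 11 alternate alpha members the corresponding values were −0.75, 0.073, 0.0091 and 0.018, and for 18 alternate gamma members −0.38, 0.23, −0.12 and −0.20 (−0.53, 0.22, −0.24 and −0.26 with *Pcdhgb8*).

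From E14 to P70 the excess fell in 5 of the 6 B-type gamma members, and among the 12 A-type members 4 rose and 2 fell, where 44.6% of genes rose and 45.2% fell. The difference between the types was not tested. The B-type members together took 21.4% of the summed gamma level per length in E14 WT, 9.95% in P7 WT, 8.28% in P35 WT and 11.2% in P70 WT (with *Pcdhgb8*, 21.95%, 12.9%, 11.5% and 13.4%). The A-type members took 32.9% in E14 WT, 42.1% in P7 WT, 33.3% in P35 WT and 36.2% in P70 WT. *Pcdhgb6* (ENSMUSG00000103088, variable exon 37742094 to 37744658) held 8.91, 10.3, 8.68, 8.82 and 7.92 RPKM in E14 WT and 2.27, 2.39, 2.94, 2.51 and 3.08 RPKM in P35 WT. Its Het libraries held 10.1, 10.8, 9.85, 9.16 and 10.1 RPKM at E14 and 3.89, 3.57, 2.85, 2.90 and 3.18 RPKM at P35. The P35 libraries were all below the E14 libraries. In all, 9 gamma members fell from E14 to P70, by 3.30 in *Pcdhgb5*, 2.19 in *Pcdhgb4*, 1.51 in *Pcdhgb7* and 1.25 in *Pcdhgb6*, and also in *Pcdhgc3*, *Pcdhgc4*, *Pcdhga4*, *Pcdhga11* and *Pcdhgb1*. *Pcdhgb5* and *Pcdhgb4* were the lowest member in many libraries, so their level is 0 there by construction. With *Pcdhgb8* as a possible reference the 9 falls were called as well, with smaller values for *Pcdhgb5* (−1.41), *Pcdhgb4* (−0.52), *Pcdhgb7* (−1.18) and *Pcdhgb6* (−1.10). The 5 gamma members that rose were *Pcdhgc5*, *Pcdhga8* (0.63), *Pcdhga5* (0.62), *Pcdhga6* (0.49) and *Pcdhga12* (0.26). With *Pcdhgb8* these 5 rose too, together with *Pcdhga1* (0.98) and *Pcdhga9* (0.80).

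**Figure D3:**
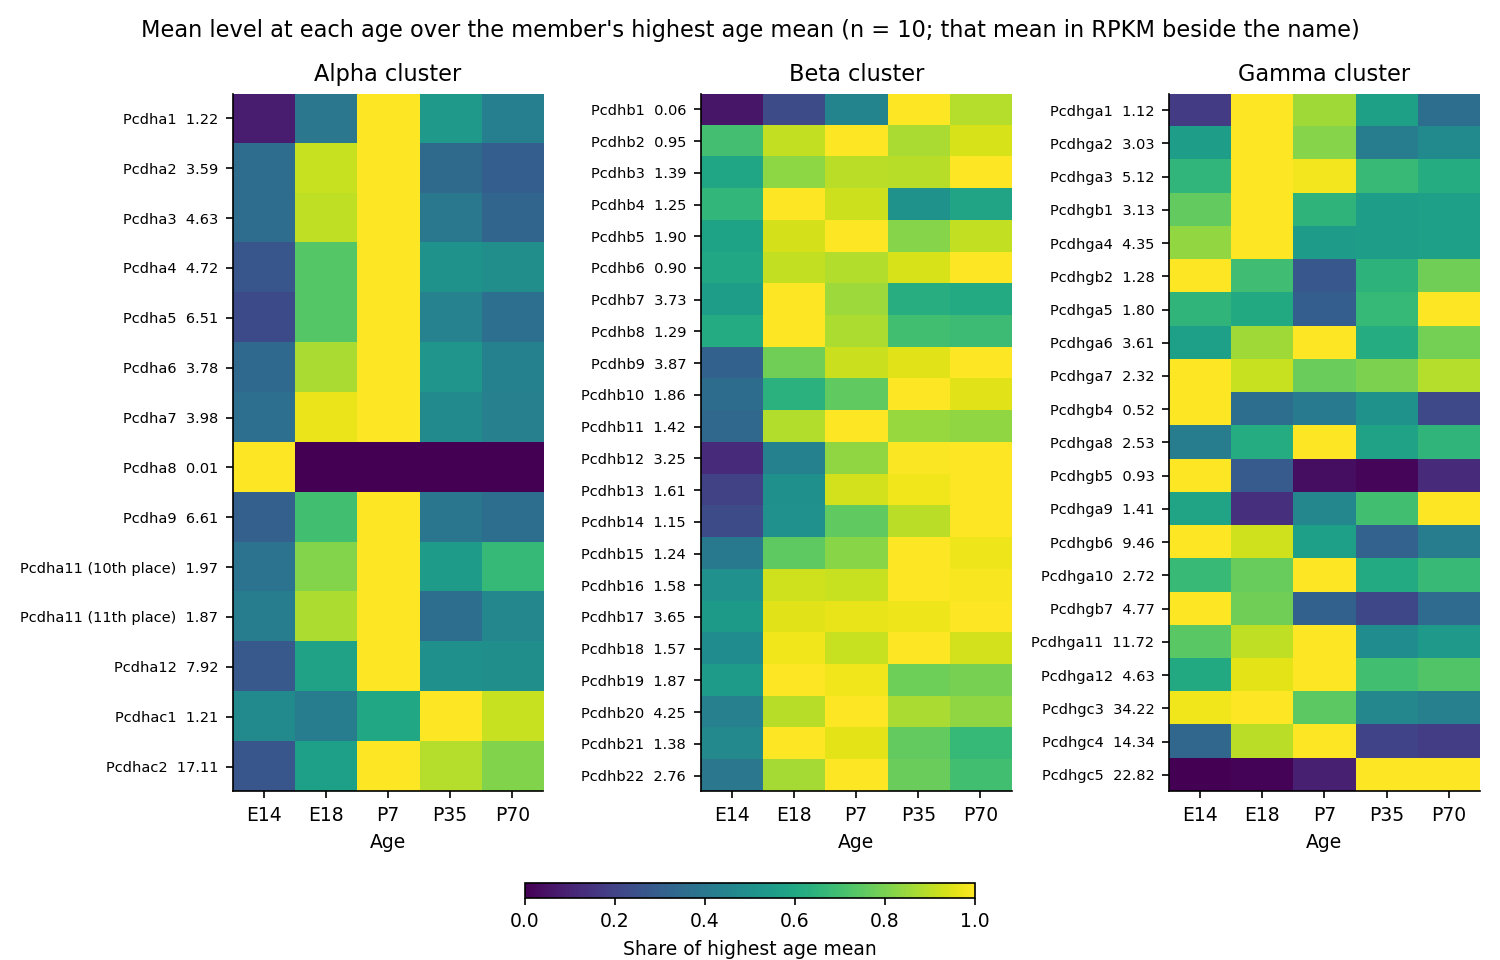
Heat map of the mean level of each member at each age (10 libraries, both genotypes) as a fraction of its highest age mean, which stands in RPKM beside the name, with members in their order along the alpha, beta and gamma clusters. Alternate alpha members other than *Pcdha8* peak at P7, 6 of the 7 members from *Pcdhb9* to *Pcdhb15* peak at P35 or P70, and *Pcdhgc5* is near its peak at P35 and P70 and near 0 at E14 and E18. The row of *Pcdha8*, the usual reference, is at 0 after E14.

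The genotypes were compared with age as a covariate over all 50 libraries. On the deposited counts, edgeR called 0 of 56 members, where 4.43% of all genes tested were called (0.680% higher and 3.75% lower in Het). The count was also 0 with limma-voom and DESeq2, under every other setting run and without any single library. Log2 fold changes of Het over WT ran from −0.095 to 0.17, with medians of 0.0003 in the alpha, −0.017 in the beta and −0.014 in the gamma cluster. An unadjusted p under 0.05 was found for 4 of 56 members, where 2360 of 16330 genes had one. All 4 were in the beta cluster and higher in Het. These were *Pcdhb6* (0.17, SE 0.064, adjusted p = 0.155), *Pcdhb3* (0.15, SE 0.058, adjusted p = 0.160), *Pcdhb4* (0.16, SE 0.075, adjusted p = 0.298) and *Pcdhb5* (0.13, SE 0.063, adjusted p = 0.310), neighbours near the start of the cluster. *Pcdhb3* at P35 held 1.10, 1.13, 1.14, 1.14 and 1.06 RPKM in WT and 1.37, 1.499, 1.24, 1.38 and 1.30 RPKM in Het. There every Het library was above every WT library, whereas at the other 4 ages the genotypes overlapped.

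On the excess, 4 of 34 members were called by genotype, where 4.45% of genes were (0.704% higher in Het). All 4 were gamma members and were higher in Het. *Pcdhga4* (ENSMUSG00000103677, variable exon 37685210 to 37687817) held 3.96, 3.94, 3.78, 3.91 and 4.76 RPKM in E18 WT and 5.24, 4.92, 4.29, 4.38 and 4.29 RPKM in E18 Het. At P7 it held 2.19, 1.97, 2.00, 2.02 and 1.52 RPKM in WT and 4.24, 2.79, 1.91, 2.76 and 2.60 RPKM in Het, and at P70 1.57, 2.54, 2.21, 2.32 and 2.32 RPKM in WT and 2.97, 3.11, 2.28, 2.83 and 2.43 RPKM in Het. Het libraries were mostly the higher at these ages, with overlap at each. At E14 it held 3.41, 3.08, 4.22, 3.74 and 2.77 RPKM in WT and 4.36, 3.81, 3.69, 3.67 and 3.64 RPKM in Het, and at P35 2.62, 1.57, 1.81, 2.46 and 2.22 RPKM in WT and 2.44, 2.91, 2.96, 2.65 and 2.52 RPKM in Het, again with overlap. Its log2 fold change was 0.31 (SE 0.065, adjusted p = 0.00144).

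*Pcdhga12* (ENSMUSG00000102428, variable exon 37765580 to 37770124) was higher by 0.19 (SE 0.053, adjusted p = 0.0211). *Pcdhgb1* (ENSMUSG00000103037, variable exon 37680233 to 37682839), which shares 1038 bases with *Pcdhga4*, was higher by 0.22 (SE 0.063, adjusted p = 0.0295), and *Pcdhgb6* by 0.16 (SE 0.046, adjusted p = 0.0299). *Pcdhgb1* at P35 held 1.76, 1.52, 1.44, 1.49 and 1.39 RPKM in WT and 2.10, 2.02, 2.03, 2.04 and 1.79 RPKM in Het, without overlap, and overlapped at the other 4 ages. The genotypes of *Pcdhga12* overlapped at all 5 ages. In the gamma cluster 18 of 21 log2 fold changes were over 0 (median 0.146), and in the alpha cluster 8 of 13 (median 0.012) with 0 called and 0 at an unadjusted p under 0.05. None of the C-type members was called, with values of −0.06 (SE 0.042) for *Pcdhgc3*, 0.03 (SE 0.058) for *Pcdhgc4*, 0.04 (SE 0.19) for *Pcdhgc5*, −0.09 (SE 0.12) for *Pcdhac1* and 0.0013 (SE 0.048) for *Pcdhac2*.

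The gamma calls turned on the reference that was subtracted. *Pcdhgb8*, the pseudogene outside the rule, has the same constant exons and lay below every gamma member in 46 of 50 libraries. Where it was allowed as the lowest member, 0 of 21 gamma members were called (4 had an unadjusted p under 0.05), 11 of 21 log2 fold changes were over 0 and their median was 0.027. Of these 4, *Pcdhgb5* had a negative value, −0.34 (SE 0.12, adjusted p = 0.104). For the members called in the main analysis the values then were 0.17 for *Pcdhga4* (adjusted p = 0.0857), 0.13 for *Pcdhga12* (adjusted p = 0.129), 0.10 for *Pcdhgb1* (adjusted p = 0.447) and 0.09 for *Pcdhgb6* (adjusted p = 0.298). The C-type values of *Pcdhgc4* and *Pcdhgc5* went from 0.03 and 0.04 to −0.02 and −0.05. The gap from the lowest gamma member down to *Pcdhgb8* averaged 45.8 counts in WT and 2.6 in Het at E14, 134.4 and 142.2 at E18, 98.6 and 90.2 in P7 libraries, 71.8 and 41.6 in P35 libraries, and 59.0 and 43.2 in P70 libraries. Without the 2 libraries with *Xist* counts *Pcdhga4* and *Pcdhga12* were called, and without P7 WT replicate 2 as well only *Pcdhga4* (0.29, adjusted p = 0.00554). *Pcdhgb6* lost its call without P35 Het replicate 1 (adjusted p = 0.0523) or P70 Het replicate 5 (adjusted p = 0.0507), and *Pcdhgb1* without P70 Het replicate 2 (adjusted p = 0.0580).

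**Figure D4:**
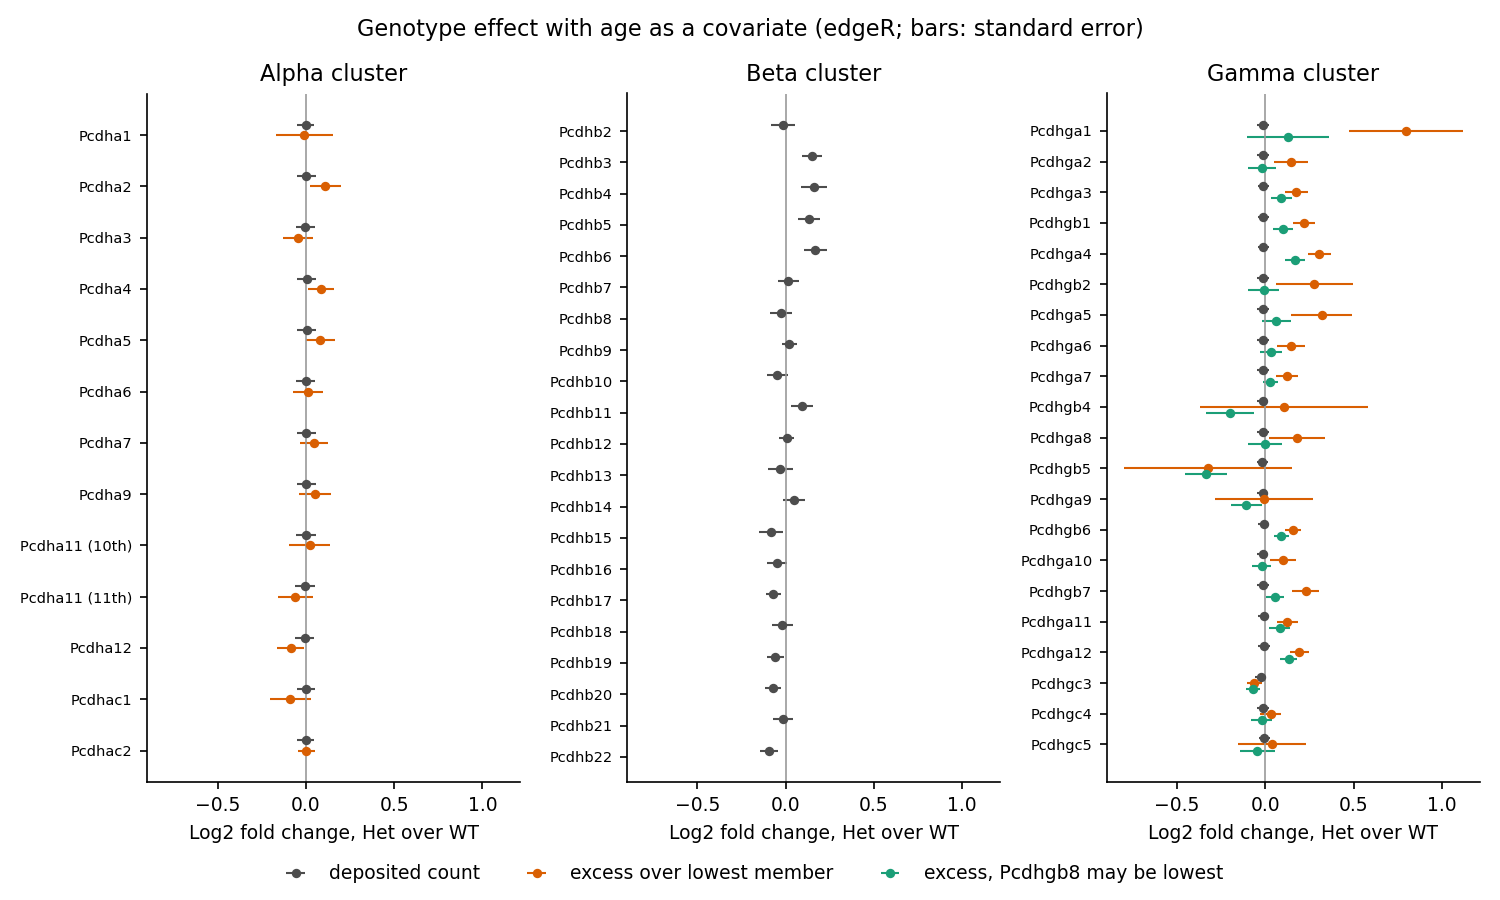
Log2 fold change of Het over WT with age as a covariate for each tested member, with bars for the standard error, from the deposited count, from the excess, and from the excess where *Pcdhgb8* may be the lowest gamma member. Deposited counts lie between −0.095 and 0.17, and the gamma values of the excess move toward 0 with *Pcdhgb8*, from a median of 0.146 to 0.027.

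At single ages, 0 members were called on the deposited counts by edgeR, limma-voom or DESeq2. The background was 0.129% of all genes called at E14, 0.110% at E18, 0.735% for P7, 0% for P35 and 0.233% for P70. The edgeR test gave an unadjusted p under 0.05 for 3 members at E14, 1 at E18, 0 in P7 libraries, 2 in P35 libraries and 0 in P70 libraries. *Pcdhb13* (ENSMUSG00000047307, exon 37442500 to 37446209) had the smallest of these p-values at E14. It held 0.475, 0.358, 0.353, 0.299 and 0.350 RPKM in E14 WT and 0.225, 0.259, 0.322, 0.245 and 0.207 RPKM in E14 Het. At E18 it held 0.627, 0.829, 0.622, 0.714 and 0.774 RPKM in WT and 0.885, 0.733, 1.11, 0.793 and 1.01 RPKM in Het. Het libraries were mostly lower at E14 and mostly higher at E18, with overlap at both ages. The log2 fold changes were −0.54 (SE 0.15, adjusted p = 0.113) and 0.35 (SE 0.14, adjusted p = 0.301), and at P7, P35 and P70 they were −0.015, 0.04 and −0.08.

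The alpha counts share their constant-exon fragments and move together. Their median log2 fold change was −0.16 at E14, with 0 of 14 over 0, and 0.098 at E18 and 0.10 at P7, with 14 of 14 over 0 at each, beside medians of −0.029, 0.016 and −0.0037 over all genes. On the deposited counts no alpha member had an unadjusted p under 0.05 at any of the 5 ages in the edgeR test. On the excess 0 of 13 alpha members were called at any age, and 3 had an unadjusted p under 0.05 at 1 age each. These were *Pcdha11* (ENSMUSG00000102206) at E14 (−0.68, SE 0.21, edgeR adjusted p = 0.128), and *Pcdhac1* (−0.81, SE 0.25, adjusted p = 0.171) and *Pcdha12* (−0.34, SE 0.17, adjusted p = 0.437) at E18. Gamma members were not called on the excess at any single age either. Their smallest edgeR adjusted p-values were those of *Pcdhga4* at P7 (0.56, SE 0.14, adjusted p = 0.0501) and *Pcdhgb7* at P35 (0.79, SE 0.16, adjusted p = 0.0518), both with the reference of the main analysis.

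The E14 result depended on the libraries used. Without the 2 libraries with *Xist* counts, *Pcdhb13* (−0.56, adjusted p = 0.0383) and *Pcdhb16* (−0.48, adjusted p = 0.0214) were called lower at E14, and the number of genes called over all genes rose from 21 to 756. Leaving out P7 WT replicate 2 as well gave 6 members, all lower in Het, and 1157 genes in all. Without E14 WT replicate 5 alone *Pcdhb13* and *Pcdhb16* were called, and without E14 Het replicate 3 *Pcdhb13* (−0.65, adjusted p = 0.0319). E14 WT replicate 5 had the lowest neuron marker sum of its group (2158 CPM, against 2603 to 3196 CPM) and the highest progenitor marker sum (627 CPM, against 434 to 559 CPM). E14 Het replicate 2 held endothelial markers at 346 CPM, against 66.1 to 121 CPM in the other E14 libraries. The part of these libraries in the E14 values was not tested beyond leaving them out.

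The age by genotype interaction was called for 0 of 56 members on the deposited counts, where 0% of all genes were called. Of the members, *Pcdhb13* alone had an unadjusted p under 0.05 (edgeR adjusted p = 0.398), where 1098 of 16330 genes had one. On the excess the interaction was called for 0 of 34 members (0% of genes). There an unadjusted p under 0.05 was found for 4 (1102 of 16329 genes), the smallest for *Pcdhgb7* (edgeR adjusted p = 0.445). *Pcdhgb7* at P35 held 0.651, 0.564, 0.800, 0.854 and 0.911 RPKM in WT and 0.939, 1.33, 1.58, 1.63 and 1.08 RPKM in Het, without overlap. At E14 it held 4.92, 5.19, 4.64, 4.65 and 3.61 RPKM in WT and 4.69, 5.12, 5.24, 5.06 and 4.63 RPKM in Het, with overlap. These levels rest on the reference of the main analysis, which at P35 lay above *Pcdhgb8* by a mean of 71.8 counts in WT and 41.6 in Het. With age as a covariate the genotype value of *Pcdhgb7* was 0.23 (SE 0.077, edgeR adjusted p = 0.0840). Where *Pcdhgb8* may be the lowest member it was 0.056 (SE 0.051, edgeR adjusted p = 0.714). The edgeR interaction counts were 0 with limma-voom and DESeq2 as well.

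Genes that act on the clusters or with their proteins were described by lists. Of 17 genes of promoter choice and silencing (CTCF, cohesin and its loaders, and factors of DNA and histone methylation), 17 fell from E14 to P70, with a median of −1.33, beside a median near 0 over all genes (−0.0032) and 45.1% of genes that fell. *Dnmt1*, the maintenance DNA methyltransferase, fell by 2.17 and *Setdb1*, a histone H3 lysine 9 methyltransferase, by 1.46. By genotype 1 of the 17 was called, where 4.43% of all genes were (3.75% lower), the cohesin subunit *Stag1*, which was lower in Het with a log2 fold change of −0.10 (SE 0.030, adjusted p = 0.0382). Its paralog *Stag2* had −0.05 (adjusted p = 0.360).

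Of 14 genes for cleavage of protocadherins and for their signalling partners, 9 rose and 5 fell from E14 to P70, where 44.7% of all genes rose and 45.1% fell. *Cyfip2* and *Nckap1*, subunits of the WAVE complex that binds to some protocadherins, rose by 2.18 and 1.36. By genotype 0 of 14 were called by edgeR (4.43% of all genes) and 3 had an unadjusted p under 0.05. The kinase *Fyn* had a log2 fold change of 0.04 (adjusted p = 0.252).

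Of 12 non-clustered protocadherins, which have no shared constant exons, 8 rose and 4 fell from E14 to P70 (44.7% and 45.1% of all genes), with *Pcdh7* up by 2.14 and *Pcdh9* by 1.94. By genotype 0 of 12 were called by edgeR (4.43% of all genes) and 1 had an unadjusted p under 0.05, *Pcdh9* with −0.10 (adjusted p = 0.201), followed by *Pcdh18* with 0.08 (adjusted p = 0.483). The interaction was called for 0 genes in each of the 3 lists.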

How the data were processed

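Libraries were sequenced in a single batch. Per the methods, the authors trimmed reads with Trimmomatic, checked them with FastQC and aligned them to GRCm38 with STAR, and the submitters' processing notes name featureCounts 1.4.6-p2 and Ensembl GTF release 102 (other versions are not given in the sources used here). The deposited values are raw counts of fragments per gene, unstranded, with a fragment on exons of several genes counted for each and multi-mapping fragments not counted.

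Members and gene lists were chosen with earlier results of these data known. Gene types and exons came from GENCODE vM21, where 55141 of 55487 genes were found. A protein-coding gene was kept if 5 or more libraries held what would be 10 counts in a library of median size, and all libraries together held 15. Kept genes were fitted by TMM and the quasi-likelihood test of edgeR 4.0.16 (R 4.3.3, limma 3.58.1) with Benjamini-Hochberg adjustment over all genes tested and a threshold of 0.05. Genotype was tested with age as a covariate, and interaction, single ages and age contrasts on the 10 groups. The excess rows replaced the alpha and gamma counts in a second fit. Each library is a separate mouse, and none of the 100 pairs of libraries within a group agreed within sampling noise. The fits were tested on simulated counts, drawn for each gene independently and scored on the fit of the deposited counts only. Recovery on the excess was not tested. Median counts per library of tested beta members ran from 86 (*Pcdhb2*) to 574.5 (*Pcdhb17*), and *Pcdhb13* summed to 439 counts over the E14 libraries. Relative to the value, counting error is largest for members near an excess of 0. Its part in the spread between libraries was not tested, and the number of mice is a further limit.

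Named members were the C-type members, the 3 highest and lowest of each cluster, and those called by genotype or with the smallest genotype or interaction p. The 3 largest rises and falls from E14 to P70 in each cluster were named too, and in each gene list the 2 genes with the smallest p. *Pcdhb5*, *Pcdhb10*, *Pcdhb15*, *Pcdhb16*, *Pcdhga3*, *Pcdhgb2*, *Pcdhgb8*, and members listed because few were called, were named after their values were seen. Of these, *Pcdhb10* and *Pcdhb16* also fall under the interaction rule, but are named here for other results. Alternatives were limma-voom, DESeq2 1.42.0, its size factors, scaling by library size alone, no filter or a minimum of 10 CPM, RNA integrity as a covariate, a replicate block, a fixed reference member, and leaving out the 2 libraries with *Xist* counts or every library singly. *Pcdhgb8* as a possible reference and the removal of 3 libraries were alternatives chosen after seeing the data. Figures were drawn with matplotlib 3.10.9 (Python 3.11.15, pandas 2.3.3). Genomic sequence of the clusters is not used here. For 1 gene that the rule names, the result is not reported here.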

Additional observations from a re-analysis of the deposited data

Results flagged for a closer look

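In groups of 5 libraries, a library was marked where its gap to the nearest other library, divided by the group's whole range, was above 0.71. Of 180 groups checked over 18 quantities (13 members and 5 cluster sums), 12 had such a library, and chance marks about 1 group in 20.

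P7 WT replicate 2 stood apart in 4 of the 12. The lowest alpha member was at 161.95 CPM there, against 232.557 to 255.88 CPM in the other libraries of its group, and the lowest gamma member at 417.528 CPM, against 466.131 to 481.88 CPM. *Pcdhgc3* was at 35.6935 RPKM, against 22.5857 to 25.4428 RPKM, and *Pcdhgc4* at 17.0533 RPKM, against 12.8947 to 13.6418 RPKM. The same library had summed choroid plexus markers of 619 CPM, oligodendrocyte markers of 1183 CPM, astrocyte markers of 1214 CPM and cortical markers of 249 CPM, the last against 572 to 635 CPM in the other WT libraries of that age. The part of these markers in the protocadherin values was not tested.

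P70 Het replicate 1 stood apart in the summed gamma excess, at 331.379 CPM against 296.974 to 299.825 CPM, and in *Pcdhgc5*, at 27.9569 RPKM against 22.075 to 22.8091 RPKM. *Pcdhga4* stood apart in E14 Het replicate 1, at 4.35714 RPKM against 3.64184 to 3.80532 RPKM, and in E18 WT replicate 5, at 4.76195 RPKM against 3.78229 to 3.96384 RPKM. *Pcdhgc4* was low in E18 Het replicate 5, at 10.6436 RPKM against 13.3105 to 14.2335 RPKM. *Pcdhga12* was low in P7 Het replicate 5, at 4.5453 RPKM against 5.06728 to 5.27229 RPKM. *Pcdhgb1* was low in P35 Het replicate 5, at 1.78852 RPKM against 2.02206 to 2.09567 RPKM. *Pcdhb6* was high in P35 Het replicate 2, at 1.15125 RPKM against 0.788758 to 0.85332 RPKM.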

How the results depend on the processing

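None of the members called by genotype, and none of the called C-type changes with age recomputed, changed direction under an alternative. The uncalled value of *Pcdhgc5* from P35 to P70 went from 0.00015 to −0.0013 where *Pcdhgb8* may be the lowest member. Of the other gamma changes with age that were called on the excess, *Pcdhga9* and *Pcdhgb7* from E14 to E18 went from under 0 to over 0 where *Pcdhgb8* may be the lowest member, without a call. With that reference 3 of the 13 gamma calls from E14 to E18 were lost, 3 of 13 from E18 to P7, 2 of 15 from P7 to P35, 0 of 2 from P35 to P70 and 0 of 14 from E14 to P70. Where *Pcdhgb8* may be the lowest member, 7 gamma genotype values that were not called went from over 0 to under 0. The genotype count on the excess, 4 members in the main analysis, was 2 with a fixed reference member, 0 where *Pcdhgb8* may be the lowest, 2 without the 2 libraries with *Xist* counts, 1 without these and P7 WT replicate 2, 5 with DESeq2, 3 with limma-voom, and 3 to 5 when each library was left out in turn. The count at E14 on the deposited counts, 0 in the main analysis, was 2 without the libraries with *Xist* counts, 6 without the 3 libraries and 0 to 2 when each library was left out. With a minimum of 10 CPM in 5 libraries, which left 18 members to test on their excess, the calls were 16 of 18 from E14 to E18 (25 in the main analysis), 13 from E18 to P7 (20) and 15 from P7 to P35 (28). With library size only, 47 members were called from P7 to P35 on the deposited counts (30 in the main analysis), and the median of all genes moved to −0.13 for E14 to P70. The P70 to E14 log2 ratio of the summed gamma excess then went from 0.13 to 0.0021. The cause of these changes was not tested beyond the settings themselves, apart from the filter, which tests fewer members.

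The replicate number was not treated as a pairing. Litter is not among the labels used here, and the methods mention littermates at postnatal ages. The correlations below cannot show whether libraries share a litter. Of 25 same-numbered pairs of WT and Het libraries, 9 had a correlation of deviations over 0.1 (range −0.204 to 0.46, median 0.0636). With the replicate block the genotype counts were 0 on the deposited counts and 4 on the excess, where *Pcdhga3* (adjusted p = 0.0243) came in and *Pcdhgb1* (adjusted p = 0.0637) went out.

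Depth limits members near the reference, for which the excess is a small difference between large counts.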

Other observations

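*Pcdhga11*, an A-type gamma member, is described here because its genotypes did not overlap at E18, a choice made after its values were seen. The log2 fold change of its excess at E18 was 0.37 (SE 0.13, edgeR adjusted p = 0.247) and was not called. At E14, P7, P35 and P70 it was −0.05, 0.02, 0.06 and 0.22, and was not called. It held 9.21, 10.7, 9.53, 9.02 and 7.82 RPKM in WT and 11.3, 11.7, 12.5, 13.3 and 10.9 RPKM in Het. At P35 it held 5.03, 6.55, 6.13, 5.69 and 4.47 RPKM in WT and 5.37, 6.41, 5.96, 5.41 and 5.94 RPKM in Het, with overlap. Of its own exon bases 52.3% are shared with other annotated genes.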
